A study of Mus musculus with 6 samples.

Results

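Oligoadenylate synthetases were examined in lung endothelial cells of mice at postnatal day 5. The 8 genes described are Oas1a, Oas1b, Oas1c, Oas1g, Oas2, Oas3, Oasl1 and Oasl2, found by symbol among the 24951 genes of the deposited count table. They were picked with their difference between mutant and control libraries already known, so their values in that contrast are a description and carry no test. The control pups were Smad4 f/f, with floxed alleles of Smad4, and the mutant pups were Smad4 f/f;Cdh5-CreERT2, with an endothelial, tamoxifen-inducible Cre added to the same alleles. The labels call the first genotype Wildtype and the second Smad4 iECKO mutant, and 1 sentence of the protocol uses the names HHTf/f and HHTiECKO without explaining them. There were 3 control and 3 mutant libraries of polyadenylated RNA, made from cells pulled down with beads carrying CD31 antibody. No library had Cre with unfloxed Smad4, so effects of Cre or of its induction cannot be told apart from those of the deletion. The tamoxifen schedule was not given in the sources used here. The column names of all 6 libraries carry 1 common tag, lit14, followed by a number for each library, and the labels do not explain it.

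Oligoadenylate synthetases are sensors of double-stranded RNA. When bound to it, the active enzymes join ATP into chains with 2′-5′ bonds, called 2-5A, which serve as a second messenger in antiviral defence. Most of these genes are kept low at rest and are induced by interferons through factors that bind interferon-stimulated response elements in promoters. In the mouse the Oas1 gene has been copied repeatedly into a tandem cluster, while Oas2 and Oas3 encode larger proteins with several synthetase units. Oasl1 and Oasl2 encode synthetase-like proteins that also carry ubiquitin-like domains.

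The 8 genes lie at 2 places on chromosome 5 (GENCODE M21, GRCm38). Oas1a, Oas1b, Oas1c, Oas1g, Oas2 and Oas3 are among 10 genes in a cluster of 191 kb from 120730333 to 120921652. Oasl1 and Oasl2 lie together from 114896936 to 114937915, 5792 kb away. Promoter sequence was at hand for 6 of the 8 (RefSeq, GRCm38.p6), and the 120 bases just before each annotated start are shown because these genes are known for induction through the response element. Capitals mark matches to its core, the letters GAAA, any 2 bases and GAAA again, searched on both strands, and matches may overlap.

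Oas1a (chr5:120907526-120907645, minus strand): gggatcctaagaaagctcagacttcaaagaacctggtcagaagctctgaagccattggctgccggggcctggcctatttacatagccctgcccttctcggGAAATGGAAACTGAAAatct
Oas1g (chr5:120887614-120887733, minus strand): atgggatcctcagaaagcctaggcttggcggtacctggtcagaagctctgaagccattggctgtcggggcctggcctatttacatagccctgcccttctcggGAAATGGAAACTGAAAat
Oas1c (chr5:120812515-120812634, minus strand): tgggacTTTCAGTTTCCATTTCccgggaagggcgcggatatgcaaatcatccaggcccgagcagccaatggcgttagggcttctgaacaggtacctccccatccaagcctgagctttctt
Oas3 (chr5:120777660-120777779, minus strand): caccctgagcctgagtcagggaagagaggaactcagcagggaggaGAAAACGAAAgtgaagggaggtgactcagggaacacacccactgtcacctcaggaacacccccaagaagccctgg
Oasl1 (chr5:114923120-114923239, plus strand): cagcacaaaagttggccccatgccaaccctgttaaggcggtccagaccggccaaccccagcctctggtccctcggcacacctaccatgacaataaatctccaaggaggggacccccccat
Oasl2 (chr5:114896814-114896933, plus strand): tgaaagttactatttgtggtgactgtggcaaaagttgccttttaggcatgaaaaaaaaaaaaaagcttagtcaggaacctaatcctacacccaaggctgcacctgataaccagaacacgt

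In the 250 bases before the start, 4 of these 6 promoters held the core, against 3.46% of the 27025 genes with a promoter sequence. Oas1a and Oas1g carried the same pair of overlapping matches close to the start, from -20 to -5 in Oas1a and from -18 to -3 in Oas1g. Their 250-base promoters were identical in 82.8% of aligned positions, while every other pair of the 6 was between 41.2% and 48.2%. Oas1c held an overlapping pair on the opposite strand, from -114 to -99, and Oas3 held 1 match, from -75 to -66. Read on that opposite strand, the Oas1c pair has the same letters as the pair in Oas1a and Oas1g. The 120 bases shown for Oas1c end where Oas1b begins, at 120812635 on the plus strand. The pair therefore also lies just before the start of Oas1b, which had no promoter entry of its own. These letters were not found in this window of Oasl1 or Oasl2. The core of the gamma-activated site, TTCNNNGAA, was found in Oas1a alone of the 6, from -98 to -90, against 8.13% of genes. Neither the palindromic SMAD-binding letters GTCTAGAC nor the GC-rich letters GGCGCC were found in any of the 6, against 0.200% and 10.8% of genes. At such shares absence from 6 promoters is common, so nothing is read from it. Shorter or other SMAD-binding letters were not searched.

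Each library held 14093564 to 21113926 reads assigned to genes. Smad4, the targeted gene, stood at 177 to 188 CPM (read counts brought to a common library size, with TMM scaling factors) in controls and at 88.8, 72.9 and 94.2 CPM in mutant replicates 1, 2 and 3, a log2 fold change of -1.09 (SE 0.10, edgeR adjusted p = 0.000604). The 10 endothelial markers, which include Pecam1 and Cdh5, summed to 8765 to 9739 CPM in control and 9192 to 9524 CPM in mutant libraries. Of these 10 markers, only Tek was called different by edgeR, and it was lower. Transcripts of the Y chromosome were present in control replicate 1 and mutant replicate 1 and nearly absent from the other 4 libraries (at most 2 counts over 4 genes). The labels do not give sex. These are bulk libraries, in which a change in RNA per cell and a change in the number of expressing cells cannot be told apart.

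Counts were summed over the 8 genes, so that the level does not depend on how counted reads were split between these relatives. Reads left out for matching several genes would be missing from the sum as well. The summed level was 50.2, 64.3 and 50.7 CPM in control replicates 1, 2 and 3. It was 192, 373 and 461 CPM in mutant replicates 1, 2 and 3. The groups did not overlap, and the lowest mutant library stood 2.98-fold above the highest control. The control mean was 55.1 ± 7.99 CPM and the mutant mean 342 ± 137 CPM (SD over 3 libraries each), a ratio of 6.21. Oasl2 alone made up 62.1% to 66.5% of the sum in controls, and without it the ratio was 6.06. The mutant libraries were unequal, at 3.48, 6.77 and 8.37 times the control mean in replicates 1, 2 and 3. Remaining Smad4 was lowest in mutant replicate 2 and spanned 1.29-fold over the 3 mutants. Its link to the summed level was not tested. Mutant replicate 1 was also the mutant library with Y-linked transcripts. Within the 1 control and 1 mutant library that had them the sum was 3.82-fold higher in the mutant. Among the 2 and 2 libraries without them it was 7.25-fold higher (a split chosen after the values were seen).

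**Figure D1:**
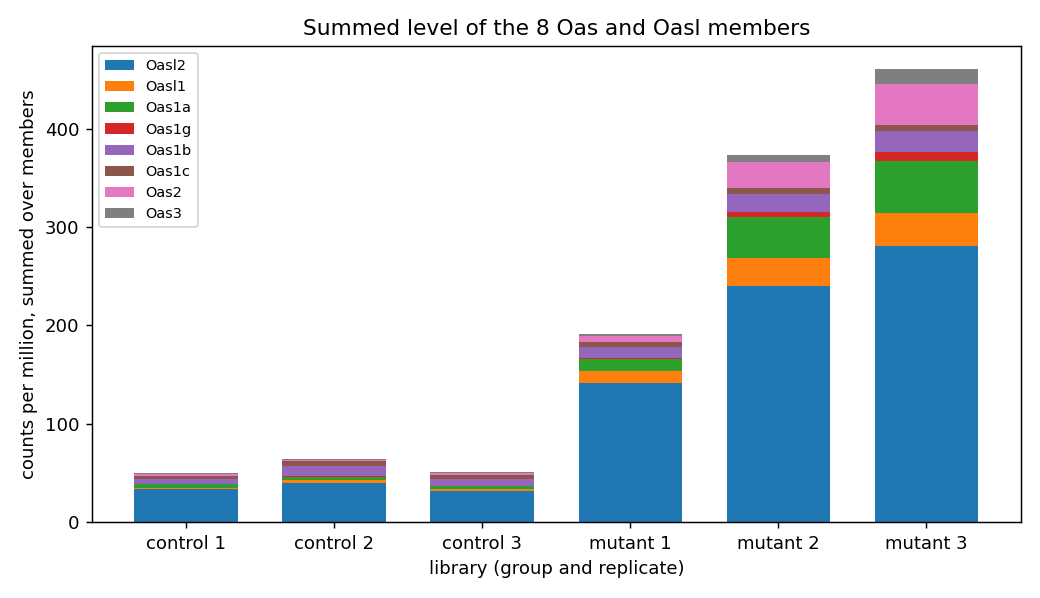
Stacked bars give the CPM of the 8 genes in each of the 6 libraries (x axis: group and replicate, y axis: CPM, from 0). The control bars end between 50.2 and 64.3 CPM and the mutant bars at 192, 373 and 461 CPM, with Oasl2 the widest band in every library.

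For 7 of the 8 genes, all but Oas1g, every mutant library was above every control. Of the 14934 tested genes, 11.6% had mutants above controls without overlap and 9.04% had mutants below. At an adjusted p under 0.05 in edgeR's quasi-likelihood test, 4 of the 8 were called higher (Oas1a, Oas3, Oasl1 and Oasl2) and 0 lower, against 1.93% of tested genes called higher, 1.34% called lower and 3.27% called in either direction. Since the genes were chosen on this contrast, nothing is read from either count. All 8 passed the filter on low counts. The median log2 fold change of the 8 was 3.42, and that of all tested genes was -0.0024. The number called was 1 without control replicate 1 or 3, 2 without control replicate 2 or mutant replicate 2, 7 without mutant replicate 1 and 4 without mutant replicate 3. It was 6 in DESeq2, and 2 in limma-voom and with no low-count filter.  Oasl2 was called in each of these 9 fits. Over all genes, the number called was 488 with all 6 libraries. It was 428, 293 and 325 without control replicates 1, 2 and 3, and 361, 211 and 405 without mutant replicates 1, 2 and 3. DESeq2 called 754 genes, limma-voom 442 and the fit with no low-count filter 565. With Y-linked transcripts as a covariate (added later), 7 of the 8 and 444 of all genes were called.

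Oas1a encodes a catalytically active synthetase. It stood at 3.69, 3.20 and 2.99 CPM in control replicates 1, 2 and 3 and at 12.4, 42.3 and 53.1 CPM in mutant replicates 1, 2 and 3. Every mutant library was above every control, and mutant replicate 1 was 4.28-fold below mutant replicate 3. The group means differed 10.9-fold, with a log2 fold change of 3.44 (SE 0.57).

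Oas1g, another active synthetase, is the closest relative of Oas1a. It had 3, 12 and 9 reads in the controls, or 0.140, 0.854 and 0.434 CPM. In mutant replicates 1, 2 and 3 it had 7, 71 and 188 reads, or 0.384, 4.46 and 9.17 CPM. Mutant replicate 1 lay within the control range, so the groups overlapped, and the first control value equals the floor of 3 counts used here. The log2 fold change of 3.40 had an SE of 1.15.

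Oas1a and Oas1g are hard to separate by short reads. Of all 50-base stretches in the annotated Oas1a transcript, 57.6% also occur in Oas1g transcripts, and 45.2% of those of Oas1g occur in Oas1a. At 100 bases the shares were 40.9% and 31.2%. Read length and the handling of reads that match several genes were not given in the sources used here. Summed over both genes, the level was 3.83, 4.06 and 3.42 CPM in controls and 12.8, 46.8 and 62.2 CPM in mutants, a ratio of 10.8. For the other 6 members the share of 50-base stretches found in any other gene was 15.1% for Oas1c, 2.98% for Oas1b, 0.521% for Oas3, 0.138% for Oasl2 and 0 for Oas2 and Oasl1. Part of the Oas1c share, 6.28% of its stretches, matched Gm43069, an antisense gene whose exons overlap it, and exons of the antisense gene Gm13822 overlap Oasl1. Neither has a row in the counts, and the use of strand is not stated, so reads from them could be counted with these members.

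Oas1b is known as the flavivirus resistance gene of wild-derived mice, and common laboratory strains carry a form that makes a truncated protein. The annotation calls it a polymorphic pseudogene, and the strain of the pups is not given. It stood at 4.90, 10.3 and 7.04 CPM in control replicates 1, 2 and 3 and at 10.9, 18.8 and 21.1 CPM in the mutants. The lowest mutant was 1.06-fold above the highest control. The means, 7.42 ± 2.73 and 16.9 ± 5.33 CPM (SD, n = 3 each), differed 2.28-fold, with a log2 fold change of 1.21 (SE 0.32).

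Oas1c, its neighbour in the cluster, differed least of the 8. Its level was 3.87, 4.49 and 3.57 CPM in controls and 5.16, 5.84 and 5.76 CPM in mutants. The groups did not overlap, but the lowest mutant was only 1.15-fold above the highest control. The mutant libraries lay within 1.13-fold of each other, and the log2 fold change was 0.50 (SE 0.19).

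The other 4 Oas1 rows of the table, Oas1d, Oas1e, Oas1f and Oas1h, held almost no reads and were not tested. Over all 6 libraries they had 2, 11, 2 and 18 reads. Oas1h had 12 of its 18 reads in mutant replicate 3 and 4 in mutant replicate 2. The rest lay at or below 4 reads in any library.

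Oas2 and Oas3, whose proteins hold several synthetase units, were near silent in controls. Oas2 stood at 1.96, 1.85 and 2.03 CPM in controls and at 6.15, 26.2 and 41.9 CPM in mutants. Oas3, the form that responds best to long double-stranded RNA, stood at 0.887, 0.641 and 0.772 CPM in controls and at 2.85, 7.09 and 15.7 CPM in mutants. Neither gene overlapped between groups. The control values of Oas2 lay within 1.09-fold of each other while its mutant values spanned 6.81-fold, and those of Oas3 spanned 5.48-fold. The ratios of the means were 12.7 and 11.1, with log2 fold changes of 3.66 (SE 0.74) and 3.45 (SE 0.66).

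Oasl2 encodes a synthetase-like protein that still makes 2-5A. It had the most reads of the 8, with 33.4, 39.9 and 31.7 CPM in controls and 141, 240 and 280 CPM in mutants. The lowest mutant was 3.54-fold above the highest control. The log2 fold change was 2.66 (SE 0.26), with the smallest SE relative to its size among the 8. Oasl1 lacks synthetase activity and is known to hold back translation of the Irf7 messenger. It went from 1.35, 2.99 and 2.17 CPM in controls to 12.4, 28.6 and 34.0 CPM in mutants, with a lowest mutant 4.15-fold above the highest control. Its log2 fold change was 3.56 (SE 0.46).

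**Figure D2:**
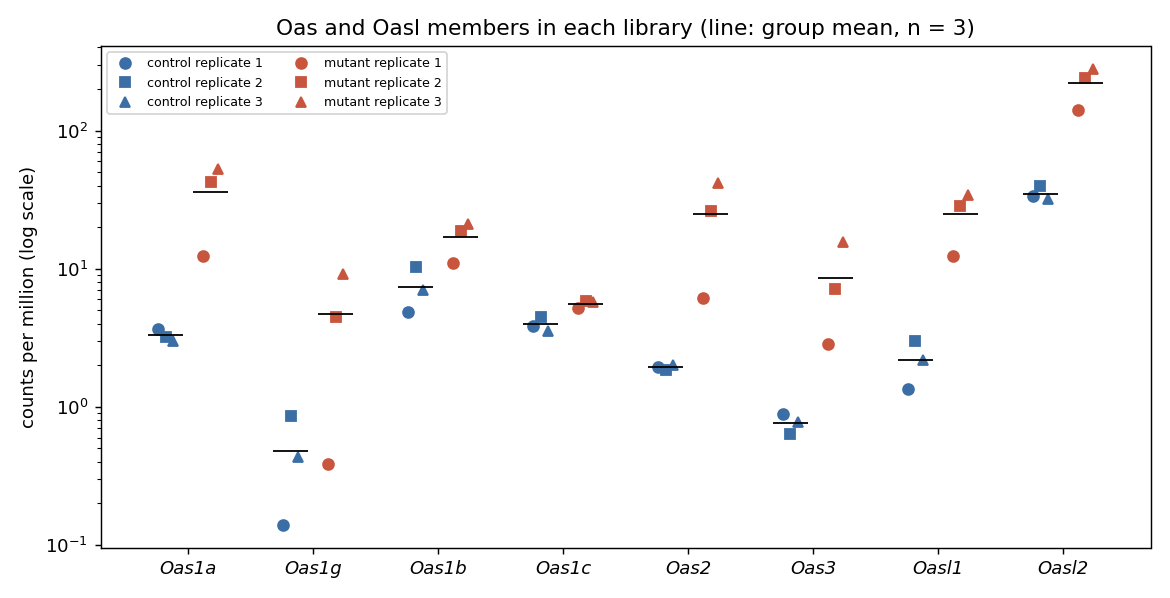
Points give the CPM of each gene in each library on a log axis (blue: control, red: mutant, marker shape: replicate), and lines mark group means of 3 libraries. Mutant replicate 1 is the lowest mutant point for all 8 genes, and Oas1c and Oas1b lie closest to their controls.

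By subfamily, the 4 Oas1 genes summed to 15.2 ± 3.29 CPM in controls and 63.1 ± 30.9 CPM in mutants, 4.16-fold apart. Oas2 and Oas3 together stood at 2.71 ± 0.192 and 33.3 ± 24.3 CPM, 12.3-fold apart, and the Oasl genes at 37.2 ± 4.99 and 245 ± 82.6 CPM, 6.60-fold apart (SD, n = 3 each). When relatives were added up before the fit, the log2 fold change was 2.07 (SE 0.43) for the Oas1 sum and 2.73 (SE 0.27) for the Oasl sum.

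Mutant replicate 1 was the lowest mutant in 8 of the 8 genes and mutant replicate 3 the highest in 7, the exception being Oas1c. Among controls, replicate 1 was lowest in 3 of the 8 and replicate 3 highest in 1. As the 8 values come from the same libraries, this is 1 pattern and not 8. Over the 6 libraries, the Pearson correlation of each gene's log2 CPM with the mean of the other 7 ran from 0.876 for Oas1g to 0.989 for Oas2. The points fall into the 2 groups, so these values mainly carry the group difference.

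Levels between genes were compared per kilobase of annotated exon (RPKM). In controls the order was Oasl2 at 5.50 ± 0.681, Oas1b at 3.73 ± 1.37, Oas1a at 1.75 ± 0.189, Oas1c at 1.65 ± 0.194, Oasl1 at 0.833 ± 0.314, Oas2 at 0.437 ± 0.0197, Oas1g at 0.203 ± 0.153 and Oas3 at 0.108 ± 0.0174 RPKM (SD, n = 3 each). Of neighbours in this order, Oasl2 and Oas1b, Oas1a and Oas1c, and Oas1g and Oas3 overlapped in their ranges. In mutants the order was Oasl2 at 34.6 ± 11.2, Oas1a at 19.1 ± 11.2, Oasl1 at 9.59 ± 4.31, Oas1b at 8.51 ± 2.68, Oas2 at 5.56 ± 4.02, Oas1c at 2.32 ± 0.154, Oas1g at 2.00 ± 1.88 and Oas3 at 1.21 ± 0.923 RPKM. There the ranges of every pair of neighbours overlapped, which does not compare genes within 1 library. In mutant replicate 1, Oasl2, Oas1a and Oasl1 stood at 22.2, 6.58 and 4.76 RPKM, and in mutant replicate 3 at 44.0, 28.2 and 13.0 RPKM. Oas1c went from the fourth place to the sixth.

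The makeup of the family also differed, a measure that does not depend on how libraries are scaled. Oas1c gave 7.71%, 6.98% and 7.03% of the family's reads in controls and 2.69%, 1.57% and 1.25% in mutants. The nearest of these values were 6.98% (95% exact Clopper-Pearson interval 5.40% to 8.84%) and 2.69% (2.18% to 3.28%), intervals that cover counting error only. Oas1b gave 9.76% to 16.1% in controls and 4.57% to 5.70% in mutants, again without overlap. Oasl1 went the other way, from 2.70% to 4.65% in controls to 6.47% to 7.67% in mutants. In CPM all 3 had higher means in mutants. Oas1c and Oas1b rose 1.40-fold and 2.28-fold, less than the 6.21-fold of the sum, and Oasl1 rose 11.5-fold. The share of Oasl2 overlapped, with 60.8% to 73.8% in mutants. These shares were compared without a test.

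Genes that limit the 2-5A pathway were listed as Abce1, Pde12 and Akap7. Of these 3, 0 were called by edgeR, 0 had an unadjusted p under 0.05, and DESeq2 and limma-voom each called 0. Abce1, a ribosome recycling factor also known to dampen the 2-5A pathway, stood at 114 ± 12.4 and 113 ± 14.1 CPM in the control and the mutant group (SD, n = 3 each), a log2 fold change of -0.0075 with an interval of -0.26 to 0.25. Its sign turned without control replicate 1 or 3 or mutant replicate 2 (0.010, 0.062 and 0.093). Pde12, a phosphodiesterase that breaks 2-5A down, stood at 107 ± 26.5 and 88.6 ± 12.3 CPM, with an interval of -0.71 to 0.16. Akap7, whose central domain also degrades 2-5A, stood at 17.2 ± 3.53 and 15.6 ± 0.615 CPM, with an interval of -0.50 to 0.22. These are 95% intervals for each gene alone, without adjustment over all genes, and they are not limits of detection.

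Components of the signal that induces these genes moved in part. Of 11 interferon signalling genes tested, edgeR called 2 higher and 0 lower, leaving 9 that were not called, with a list median of 0.31 on the log2 scale. Of all tested genes, edgeR called 1.93% higher. An unadjusted p under 0.05 was reached by 7 of the 11, against 2095 of all 14934 tested genes. In 7 of the 11 every mutant library was above every control, against 11.6% of tested genes. DESeq2 called 3 and limma-voom 2. The 2 called higher were Irf7, a factor that drives interferon genes, and Usp18, which damps receptor signalling. Irf7 went from 14.6 ± 1.80 to 117 ± 53.4 CPM and Usp18 from 10.2 ± 1.02 to 63.1 ± 22.3 CPM, with log2 fold changes of 3.01 and 2.64 (SE 0.39 and 0.29, edgeR adjusted p = 0.0128 and 0.00378). The call of Irf7 ended without control replicate 1, 2 or 3 (edgeR adjusted p = 0.125, 0.0582 and 0.119) and with no low-count filter (0.0638). The 9 that did not pass, among them the receptor and kinase genes, lay between -0.13 and 0.89. The number called in the list was 1 without control replicate 1 or 3 and with no low-count filter.

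The list of other double-stranded RNA sensors, which also held the adaptor genes Mavs and Ticam1, was higher in part. Of 9 listed, edgeR called 5 higher and 0 lower, against 1.93% of tested genes called higher. The list median was 1.00, and 7 had an unadjusted p under 0.05, against 2095 of all 14934 tested genes. Mavs, Ticam1 and Tlr3 (named after their values were seen) were not called by edgeR, with log2 fold changes of -0.088, -0.0055 and 0.47. DESeq2 called 7 and limma-voom 5. Zbp1 had the list's highest log2 fold change, 3.74, which was not called by edgeR (adjusted p = 0.0713) but was by DESeq2 (adjusted p = 6.8e-05). The 5 called higher by edgeR were Eif2ak2, encoding the kinase PKR that halts translation, the helicase genes Ddx58 (RIG-I), Ifih1 (MDA5) and Dhx58 (LGP2), and Adar, which edits adenosine in double-stranded RNA. Their log2 fold changes were 1.06, 1.00, 1.56, 2.58 and 0.94, with edgeR adjusted p from 0.00525 to 0.00732. The call of Dhx58 ended without control replicate 1 or 3 (adjusted p = 0.0564 and 0.0543) and that of Ddx58 without mutant replicate 2 (0.0630). In each of these 5 genes, too, mutant replicate 1 was the lowest mutant and mutant replicate 3 the highest, as in Adar, at 142, 187 and 213 CPM against 91.7 to 98.7 CPM in controls.

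**Figure D3:**
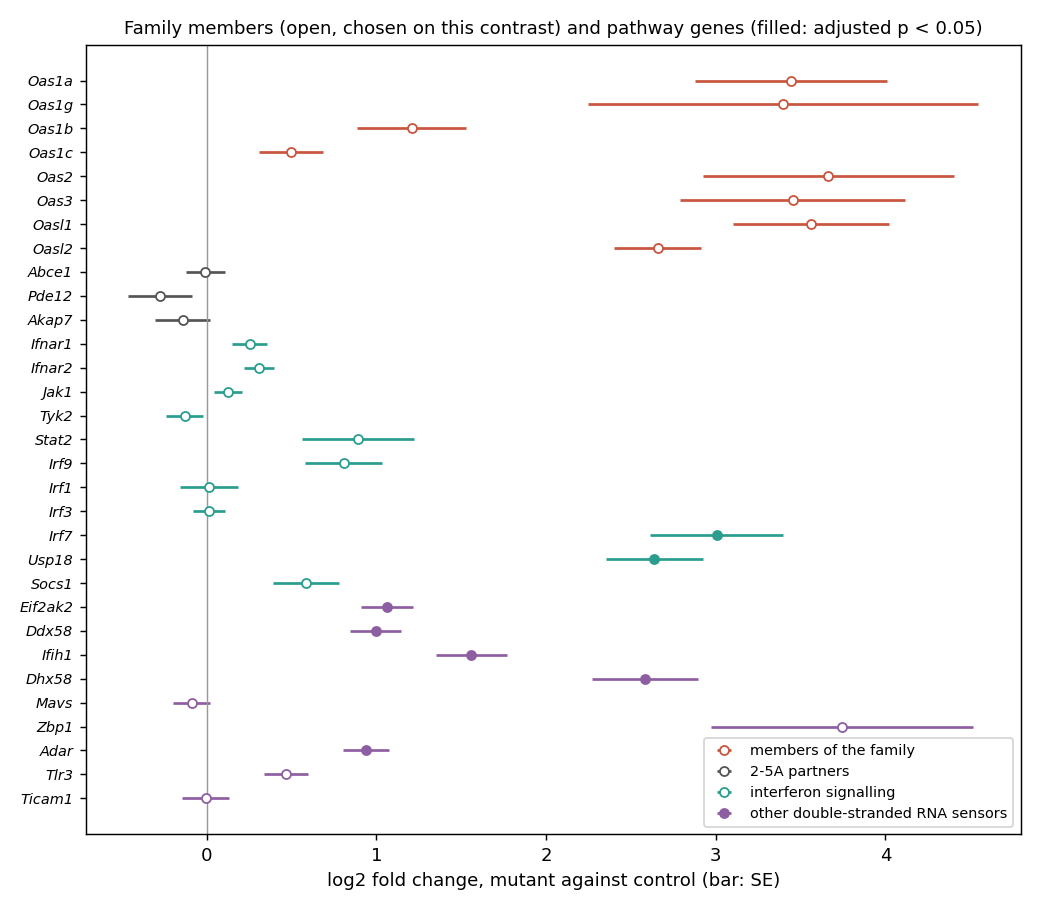
Log2 fold changes of mutant against control with SE bars, for the 8 genes (open red, chosen on this contrast) and for tested genes of the pathway lists (filled where the adjusted p is under 0.05). The 3 genes that limit the 2-5A pathway sit between -0.27 and -0.0075, while 2 interferon signalling genes and 5 genes of the sensor list are filled and to the right.

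Messengers of the interferons themselves were at or near the limit of these libraries. Of 10 listed ligand genes, 6 had no read in any library and none was tested. A count of 0 allows up to 3 counts, or 0.140 to 0.214 CPM depending on the library. Ifnb1, named after its values were seen, had 0 reads in the 3 controls and 2, 2 and 0 in mutant replicates 1, 2 and 3, below that floor.

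Genes beside the 8 on chromosome 5 were examined as well. Of 39 other tested genes within 500 kb of either locus, 0 were called by edgeR, against 3.27% of all tested genes. An unadjusted p under 0.05 was reached by 4, against 2095 of all 14934 tested genes. In 8 every mutant library was above every control and in 1 below, against 11.6% and 9.04% of tested genes. DESeq2 called 1 and limma-voom 0. Their log2 fold changes ran from -0.65 to 0.62 with a median of 0.079, where the 8 members, which were chosen on this contrast, ran from 0.50 to 3.66. The 2 ranges overlap at Oas1c. The gene called by DESeq2 was Trafd1, a known interferon-induced regulator, named after its values were seen. It went from 77.3 ± 4.32 to 119 ± 25.7 CPM (edgeR adjusted p = 0.0664) and was also called without mutant replicate 1, with no low-count filter, with the replicate number as a block and with the Y-linked covariate.

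**Figure D4:**
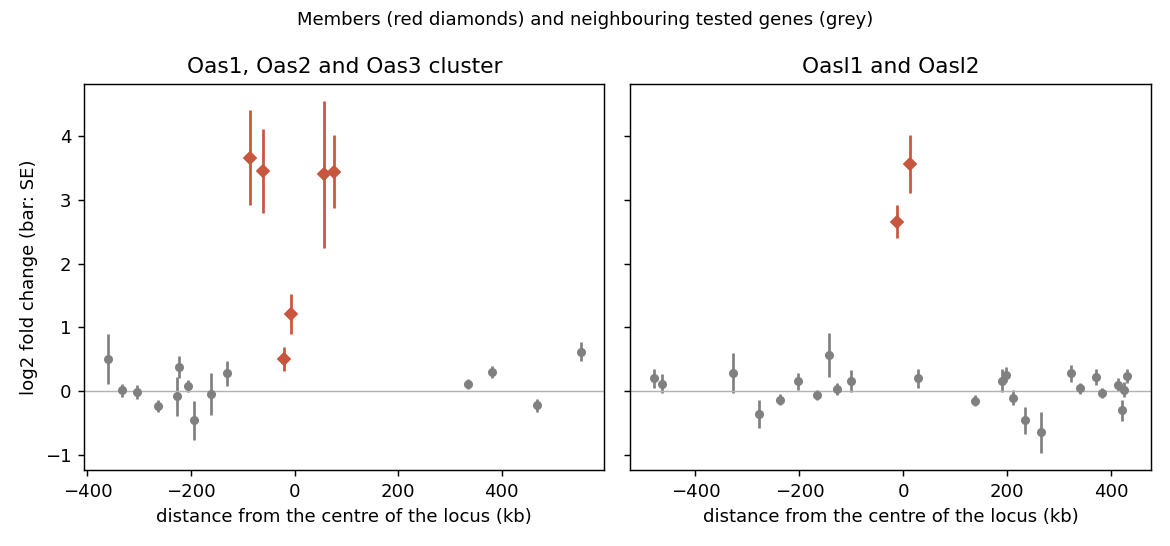
Log2 fold change with SE bars against distance in kb from the centre of each locus, for members (red diamonds) and other tested genes within 500 kb (grey). Grey points lie between -0.65 and 0.62 on both sides, and Oas1c and Oas1b, in the middle of the cluster, are the lowest diamonds at 0.50 and 1.21.

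Outside the family, the genes whose log2 CPM followed the mean of the 8 most closely over the 6 libraries, among the 12130 tested genes outside it that reached a mean of 2 on the log2 CPM scale, were Apol9b (Pearson r = 0.998), Ddx58 (0.995), Zbp1 (0.995), Sp100 (0.995) and Parp10 (0.993). Of deviations from the group means the same correlations were 0.967 to 0.993. The values are descriptions of 6 libraries in 2 groups. Zbp1, a sensor of Z-form nucleic acid, had 1.45 to 1.85 CPM in controls and 4.72, 26.5 and 33.1 CPM in mutants. Sp100, which encodes a nuclear body protein, had 47.8 ± 2.21 CPM in controls and 86.4, 137 and 170 CPM in mutants. Apol9b, of the apolipoprotein L family, had 7 reads in each control and 31, 150 and 299 reads in mutant replicates 1, 2 and 3.

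Since leukocytes also express these genes, markers of other cells are given beside them. Of all 14934 tested genes, 2095 had an unadjusted p under 0.05 in edgeR. Macrophage and monocyte markers summed to 787 to 937 CPM in controls and 793 to 859 CPM in mutants, and 0 of 12 were called by edgeR, 2 had an unadjusted p under 0.05, and DESeq2 and limma-voom called 0. Lyz2 held much of that sum, at 315 to 502 CPM in controls and 431, 364 and 323 CPM in mutant replicates 1, 2 and 3. Some smaller markers were lowest in mutant replicate 1 and highest in mutant replicate 3, as the Oas genes were (these were singled out after their values were seen). C1qb stood at 19.9 to 29.9 CPM in controls and 19.0, 40.2 and 53.0 CPM in mutants, C1qa at 22.6 to 33.7 and 20.9, 39.6 and 50.1 CPM, and Csf1r at 100.1 to 120 and 93.4, 131 and 155 CPM. All 3 overlapped between groups. Ly6c2 did not overlap, at 2.06 to 3.62 CPM in controls and 4.17, 4.21 and 13.1 CPM in mutants. Adgre1 and Ccr2 also ran in that order. Others of the list ran the opposite way, with Lyz2, Marco and Siglecf falling from mutant replicate 1 to 3. Marco stood at 34.3, 21.8 and 12.4 CPM and Siglecf at 4.06, 2.70 and 1.90 CPM in mutant replicates 1, 2 and 3. Cd68, Mrc1 and Itgam were lowest in mutant replicate 2. The part of these markers in the Oas values was not tested. Lymphocyte markers summed to 125 to 133 CPM in controls and 151 to 201 CPM in mutants, without overlap. That sum consisted mainly of the B cell genes Ms4a1, Cd79a and Cd79b. The T cell genes went the other way on average, with overlap between groups. Cd3e had means of 1.87 CPM in controls and 1.29 CPM in mutants, and Cd3g 2.22 and 1.75 CPM. Nkg7 and Klrb1c were too low to be tested. Of 5 lymphocyte markers tested, 0 were called by edgeR, 3 had an unadjusted p under 0.05, DESeq2 called 1 and limma-voom 0. Their part in the Oas values was not tested. Dendritic cell markers summed to 181 to 222 CPM in controls and 269 to 351 CPM in mutants, of which Bst2, itself a known interferon-induced gene, was called higher and Clec9a lower. Without Bst2 (a choice made after the values were seen) the sum was 94.6 to 140 CPM in controls and 61.2 to 116 CPM in mutants. Itgax and Clec9a made up most of that remainder. Itgax overlapped between groups, at 38.5 to 77.8 CPM in controls and 79.2, 41.6 and 24.4 CPM in mutant replicates 1, 2 and 3. Ccr9, Xcr1 and Flt3 were low, with means of 0.655, 0.458 and 0.554 CPM in controls and 0.880, 0.553 and 0.592 CPM in mutants. Siglech, which defines plasmacytoid dendritic cells, was at 0.420 to 0.530 CPM in controls and 0.329 to 0.634 CPM in mutants. Neutrophil, epithelial, fibroblast and pericyte, and erythroid and platelet sums overlapped between groups, and edgeR called 0 of their 7, 8, 8 and 4 tested markers. Of these, 2 had an unadjusted p under 0.05, DESeq2 called 1 and limma-voom 0. The haemoglobin genes Hba-a1, Hbb-bs and Hbb-bt had no reads.

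**Figure D5:**
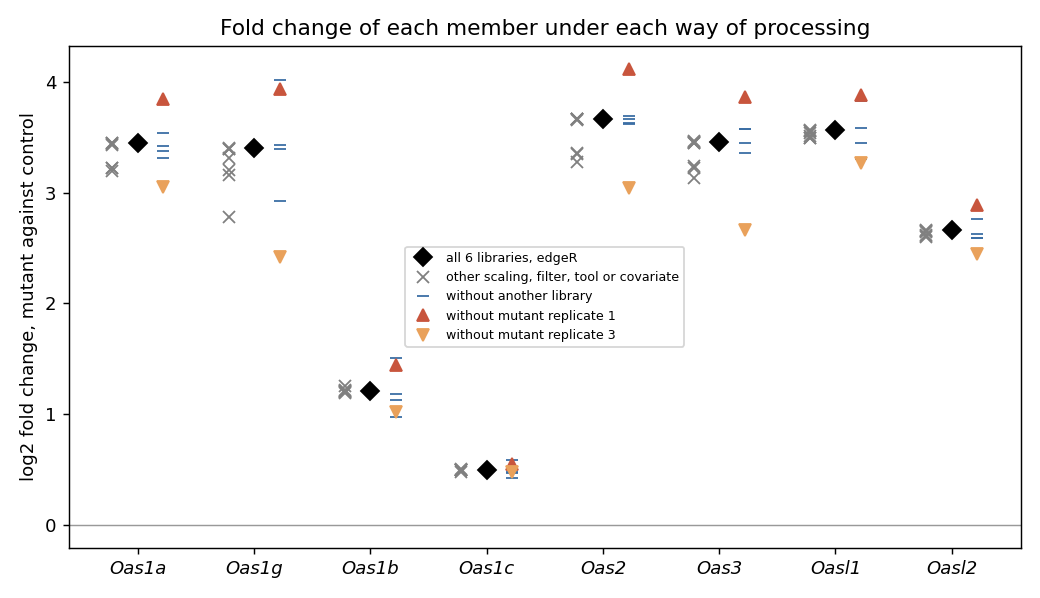
Log2 fold change of each member (x axis) in the fit of all 6 libraries (black) and under each alternative, with fits lacking a library on the right of each column. No value falls to 0, for each gene the fit without mutant replicate 1 lies above the black point and the fit without mutant replicate 3 below it, and Oas1g has the widest range, from 2.41 to 4.01.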

How the data were processed

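Gene counts of 3 control and 3 mutant libraries were used. The authors deposited raw counts per gene symbol, as whole numbers with no normalization. Per the submitters' processing notes the build was mm10, and DESeq2 is named without a version or role; aligner, counter, annotation and strand setting were not given in the sources used here. Reads without a feature (53.9% to 58.2% of each library) and ambiguous reads (0.288% to 0.366%) were left out of library sizes. Counts were fitted in R 4.3.3 with edgeR 4.0.16 (filterByExpr, TMM factors, robust quasi-likelihood F test, two-sided, Benjamini-Hochberg over 14934 genes), with a call at an adjusted p under 0.05. The SE is the log2 fold change divided by the square root of F. RPKM used exon lengths of GENCODE M21. Alternatives were edgeR with RLE or upper-quartile factors, no low-count filter, DESeq2 1.42.0, limma-voom (limma 3.58.1), leaving out each library, the replicate number as a block, relatives summed before the fit and, added later, Y-linked transcripts as a covariate. Replicates within a group differed by more than sampling noise (chi-square 12.3 times its degrees of freedom or more for every pair). The labels call the samples independent, but p-values measure the spread between these libraries only. The code for the fits was tested on simulated counts. The members and lists were chosen with earlier results of these data known. Genes named are the 8 members and other Oas1 rows, Smad4, the genes that limit the 2-5A pathway, up to 4 called genes of each other pathway list, the 5 most alike genes and called neighbours, with exceptions stated. Of 103 listed symbols, 102 were found in the table. A few further genes of these lists are not reported here, and the list counts leave them out.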

Additional observations from a re-analysis of the deposited data

How the results depend on the processing

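In the 13 or 14 alternatives run per gene, the Y-linked covariate (chosen after seeing the data) included, each of the 8 members kept its direction, and each log2 fold change moved by less than the pooled SD of its libraries. The log2 ratio of the summed family level, 2.63, lay between 2.36 and 2.92 when a library was left out, was 1.93 in the libraries with Y-linked transcripts alone, and was 2.55 over pairs of same-numbered replicates (replicate block). The count of called genes, 488, became 754 in DESeq2, and 211 (without mutant replicate 2) to 428 when a library was left out, with 293 without control replicate 2 and 325 without control replicate 3. Of the same-numbered pairs only the replicate 3 libraries deviated together by more than 0.1 (correlations -0.0096, 0.019 and 0.16), and mutant replicate 2 was closest to control replicate 1 (0.12), so the numbers were not taken to pair the libraries, although both replicates 1 hold Y-linked transcripts. With the replicate block 466 genes were called, among them 5 members (Oas1b, Oas1g, Oas3, Oasl1 and Oasl2), so that Oas1a left the calls and Oas1b and Oas1g entered. Among genes near the loci the count of 0 became 1 (Trafd1) with no low-count filter, in DESeq2, with the replicate block and with the Y-linked covariate, and 0 to 1 when a library was left out. Abce1 ran from -0.090 to 0.093 when a library was left out, with a positive sign in 3 of those fits (0.010, 0.062 and 0.093). The sum of dendritic cell markers had a log2 ratio of 0.58, and -0.58 without Bst2, where Itgax and Clec9a made up most of the sum. The cause of these shifts was not tested. Depth limits Oas1g and Oas3, with 3 to 19 reads per control library, and still more Oas1d, Oas1e, Oas1f and Oas1h, with 0 to 4, and the interferon genes.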
